A study of Mus musculus with 59 samples.

Results

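Acute phase proteins are plasma proteins whose genes are switched by inflammation, and hepcidin is the liver hormone that controls iron. 10 such genes were followed here through the mouse liver, the mouse hepatocyte line AML12 and 2 hind limb muscles, in a study of hydroxycitrate (HC), a plant-derived inhibitor of the enzyme ATP citrate lyase (ACLY). The genes were Saa1, Saa2, Saa3, Hp, Orm1, Orm2, Crp, Lbp, Hamp and Hamp2, taken by symbol, and they were 10 of the 24972 gene rows in each of the 4 tables. RNA sequencing had been done on 59 libraries in 17 groups. The liver and the soleus came from wild-type male C57BL/6 mice killed at 41 weeks of age after a fast, 5 fed standard chow with HC for 21 weeks and 5 fed the chow alone (STD). AML12 cells, one non-tumour mouse hepatocyte line kept in medium with insulin, transferrin, selenium and dexamethasone, received a small interfering RNA against Acly (siAcly) or a control one (siC), and then HC at 1 mM, SB (SB-204990, an ACLY inhibitor) at 10 µM, Bemp (bempedoic acid, another ACLY inhibitor) at 30 µM or no drug (Ut) for 16 h, with 3 libraries in each of the 8 groups. The gastrocnemius came from wild-type male C57BL/6 mice of about 6 months. Cardiotoxin (CTX), a venom toxin that kills muscle fibres, was injected into one hind limb, and HC chow (CTX-HC) or plain chow (CTX) followed. Muscle was taken at 2 or 30 days post injury (DPI), with uninjected mice as controls (C) and 3 libraries in each of the 5 groups. The labels do not say whether the 3 AML12 libraries of a group were separate cultures, so p-values there measure only the spread between these libraries.

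In an infection or injury, the cytokines IL-6 and IL-1 reach the hepatocyte and act there through the transcription factors STAT3, C/EBP beta and NF-kB. Serum amyloid A proteins (Saa1, Saa2) then ride on high-density lipoprotein, haptoglobin (Hp) captures free haemoglobin, the orosomucoids (Orm1, Orm2) carry small lipophilic molecules, Lbp hands bacterial lipopolysaccharide to CD14, and C-reactive protein (Crp), a modest responder in the mouse, binds phosphocholine on bacteria and dying cells. Saa3 is also made by macrophages and fat cells. Hepcidin (Hamp) binds the iron exporter ferroportin and has it degraded. Its gene answers both to IL-6 through STAT3 and to iron through bone morphogenetic proteins (BMP) and SMAD proteins, and Hamp2 is a duplicate found in the mouse.

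Several of the genes are neighbours. In the GRCm38 (mm10) assembly with GENCODE M21 gene models, chromosome 7 holds Saa3 (46711998 to 46715700, minus strand), Saa1 (46740497 to 46742980, minus) and Saa2 (46751790 to 46754313, plus), with 8.81 kb between Saa1 and Saa2. It also holds Hamp2 (30922372 to 30924681, minus) and Hamp (30942368 to 30944032, minus), 17.7 kb apart. Orm1 (63344560 to 63348163, plus) and Orm2 (63362449 to 63365878, plus) lie 14.3 kb apart on chromosome 4, Hp (109575128 to 109579172, minus) is on chromosome 8, Crp (172698055 to 172833031, plus) on chromosome 1 and Lbp (158306493 to 158332852, plus) on chromosome 2. Saa1 and Saa2, Orm1 and Orm2, and Hamp and Hamp2 are near copies of each other, so the share of reads that counting gave to each copy is uncertain.

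7 of the 10 genes had a promoter in the RefSeq table of GRCm38.p6. The 250 bases before the RefSeq start are shown for the hepcidin pair, for the 3 serum amyloid genes and for Orm2. They were chosen because the copies differed in level in the values that follow. The RefSeq starts differ from some of the GENCODE gene ends given above. The Hamp2 window lies inside its GENCODE gene, and the Hamp, Saa2 and Saa3 windows reach into theirs. Capitals mark matches, on either strand, to TTCNNNGAA (the STAT motif), TTNNGNAA (the C/EBP motif), the NF-kB motif and GGCGCC (the BMP-responsive element). No 2 matches overlapped. The sequences run 5′ to 3′ on the gene's strand and come from chr7:30944030-30944279 (Hamp, minus), chr7:30924182-30924431 (Hamp2, minus), chr7:46742981-46743230 (Saa1, minus), chr7:46751583-46751832 (Saa2, plus), chr7:46715677-46715926 (Saa3, minus) and chr4:63362199-63362448 (Orm2, plus).
Hamp: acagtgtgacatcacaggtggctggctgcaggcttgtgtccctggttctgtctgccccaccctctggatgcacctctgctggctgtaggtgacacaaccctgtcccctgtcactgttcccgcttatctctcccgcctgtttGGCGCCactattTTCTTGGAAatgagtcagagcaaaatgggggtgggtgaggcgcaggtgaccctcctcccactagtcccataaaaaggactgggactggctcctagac
Hamp2: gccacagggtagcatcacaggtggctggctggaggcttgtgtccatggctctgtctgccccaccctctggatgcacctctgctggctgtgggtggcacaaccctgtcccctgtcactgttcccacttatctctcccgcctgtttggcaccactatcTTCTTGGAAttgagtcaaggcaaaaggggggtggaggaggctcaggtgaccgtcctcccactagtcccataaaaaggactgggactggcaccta
Saa1: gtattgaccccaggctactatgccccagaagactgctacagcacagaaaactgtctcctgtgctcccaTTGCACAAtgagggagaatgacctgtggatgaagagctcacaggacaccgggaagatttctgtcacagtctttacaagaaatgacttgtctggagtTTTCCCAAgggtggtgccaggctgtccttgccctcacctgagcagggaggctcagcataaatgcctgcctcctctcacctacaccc
Saa2: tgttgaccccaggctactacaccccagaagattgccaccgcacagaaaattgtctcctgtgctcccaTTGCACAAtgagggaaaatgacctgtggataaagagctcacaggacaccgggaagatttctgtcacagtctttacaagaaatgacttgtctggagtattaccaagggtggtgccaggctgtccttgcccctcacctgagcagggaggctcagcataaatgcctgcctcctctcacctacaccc
Saa3: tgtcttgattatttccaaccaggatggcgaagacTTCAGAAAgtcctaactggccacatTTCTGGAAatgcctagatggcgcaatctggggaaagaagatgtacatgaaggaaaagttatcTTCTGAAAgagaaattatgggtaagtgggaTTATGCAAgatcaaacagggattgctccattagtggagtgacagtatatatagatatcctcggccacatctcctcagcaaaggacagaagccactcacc
Orm2: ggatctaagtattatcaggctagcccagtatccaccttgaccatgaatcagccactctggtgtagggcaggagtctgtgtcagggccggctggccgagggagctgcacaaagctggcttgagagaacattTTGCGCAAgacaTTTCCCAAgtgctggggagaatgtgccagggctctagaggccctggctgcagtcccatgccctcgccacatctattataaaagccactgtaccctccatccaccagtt

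Hamp held both a STAT match, 88 bases from the RefSeq start, and a GGCGCC match, 103 bases from it. Hamp2 held the STAT match at 85 bases and no GGCGCC, although 89.7% of the aligned bases of the pair were identical. Saa1 and Saa2 were 94.8% identical, and Saa1 had 2 C/EBP matches, at 174 and 78 bases, where Saa2 had only the distal one, at 175 bases. Saa3, at 52.2% identity with Saa1, had 4 C/EBP matches, Orm2 had 2 and Crp had 1, and no NF-kB match was found in any of the 7 windows. Short motifs are common: among 27025 mouse promoters of the same length, 36.9% held the C/EBP motif, 9.54% GGCGCC, 7.18% the STAT motif and 1.4% the NF-kB motif, so a match is only a description of the letters.

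All values are gene counts normalised by the authors within each table, called normalised counts here. The estimated depth was 7.69 to 13.1 M reads per library in liver, 8.93 to 11.2 in soleus, 7.31 to 16.3 in AML12 and 16.0 to 34.9 in gastrocnemius. The knockdown check showed Acly at 215.3 to 598.5 normalised counts in the 12 siAcly libraries and at 2576 to 3860 in 11 siC libraries. In the library labelled siC Bemp 11, Acly stood at 404.4, within the siAcly range. Hepatocyte markers were high in every liver library and muscle fibre markers in every muscle library, neutrophil markers summed to at most 17.7 in liver, and AML12 cells held the cholangiocyte keratin gene Krt19 beside albumin (Alb). Stray tissue was visible in single libraries: the fat cell gene Adipoq stood at 50.8 in liver STD replicate 4 and at 0 in the other 9 livers, and the muscle actin Acta1 at 401.9 in liver STD replicate 5 and at 0 in the other 9.

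In liver, the acute phase and hepcidin genes covered more than 3 orders of magnitude. Per kilobase of the longest transcript, the medians over the 10 livers were 23682 normalised counts for Hp, 14406 for Hamp, 4857 for Orm1, 2048 for Crp, 919 for Saa1, 530 for Lbp, 236 for Saa2, 91.8 for Orm2, 34.6 for Hamp2 and 13.9 for Saa3. The order was firm at the top, with Hamp above Orm1 and Orm1 above Crp in 10 of 10 livers, and Hp above Hamp in 9. It was loose in the middle: Crp was above Saa1 in 7 livers, Saa1 above Lbp in 8 and Lbp above Saa2 in 6. Some places rest on the division by length: the longest transcript has 2200 bases for Saa3 and 437 for Hamp2, and in the undivided values Saa3 was above Hamp2 in 7 of 10 livers and Lbp above Saa1 in 7. Hamp2 had 0.000872 to 0.0156 times the value of Hamp, Orm2 0.00622 to 0.0984 times that of Orm1, and Saa2 0.229 to 0.541 times that of Saa1.

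Whether 21 weeks of HC changed these genes in liver was tested with limma, and none of the 10 passed an adjusted p of 0.05, against 0% of the 11497 genes tested (488 genes, 4.24%, had an unadjusted p under 0.05, and 2 of the 10 did). 8 of the 10 had a lower mean log2 value in HC livers, and Hamp and Hamp2 a higher one. Their median log2 fold change was −0.31, beside −0.01 over all genes tested. Every adjusted p of the 10 was 0.995, and the HC and STD livers overlapped for each gene (0.618% of all genes did not).

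The serum amyloids differed between mice far more than between diets. Saa1 was at 376.1, 283.1, 3944.2, 872.4 and 201.1 normalised counts in HC livers, replicates 1 to 5, against 578.1, 540.7, 15147.0, 385.4 and 7217.8 in STD livers. Saa2 followed at 145.2, 66.9, 1377.6, 471.9 and 54 in HC livers, against 163.1, 123.9, 7506.3, 121.0 and 2898.4 in STD livers. Thus STD replicates 3 and 5 and, at a lower level, HC replicate 3 were high for both genes, and the remaining STD livers lay inside the HC range. The log2 fold change was −1.49 (SE 1.05) for Saa1 and −1.45 (SE 1.22) for Saa2, with exact 2-sided permutation p = 0.246 and p = 0.357 (n = 5 livers each, smallest possible p 0.00794).

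Saa3, low in liver, was at 21.2, 26.2, 34.2, 37.4 and 10.8 in HC livers, against 29.0, 17.7, 46.8, 32.0 and 132.2 in STD livers, with only STD replicate 5 standing apart. Orm2 was at 64.6, 63.8, 140.8, 114.8 and 15.8 in HC livers, against 61.5, 77.8, 651.8, 42.8 and 247.8 in STD livers. STD replicates 3 and 5 were again the highest for Orm2. The log2 fold changes were −0.72 (SE 0.46) for Saa3 and −0.98 (SE 0.71) for Orm2, neither called.

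The abundant carriers moved less. Hp, the haemoglobin scavenger, was at 25276, 31331, 41765, 25969 and 32469 in HC livers, against 31843, 31862, 59807, 26212 and 42524 in STD livers, and its log2 fold change was −0.26 (SE 0.21). Orm1 was at 4169.5, 3402.9, 3718.4, 3369.3 and 2546.3 in HC livers, against 3971.9, 3810.7, 6622.2, 3636.9 and 4445.9 in STD livers. STD replicate 3 was the highest and HC replicate 5 the lowest for Orm1, with the other 8 livers between 3369.3 and 4445.9. The log2 fold change of −0.37 (SE 0.17) had an exact permutation p of 0.0794 (n = 5 livers each) and shrank to −0.22 at the least when one liver was left out. STD replicate 3 also had the highest Serpina3n, a serine protease inhibitor of the acute phase (11403, against 4766 to 6537 in the other 9 livers), and the highest Lcn2, an iron-siderophore binder (530.1, against 35.8 to 199.4). The Kupffer cell lectin Clec4f was lowest in that liver, at 336.3 against 445.7 to 762.7, and the part of any of these in the values of Saa1, Saa2, Hp and Orm1 was not tested.

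Crp and Lbp were the steadiest. Crp was at 2981 to 3500 in HC livers (median 3472) and at 3113 to 4055 in STD livers (median 3577), a log2 fold change of −0.08 (SE 0.09). Lbp was at 1283.7, 1223.8, 1358.3, 1153.6 and 1326.6 in HC livers, against 1451.3, 1432.3, 1521.6, 1343.9 and 1331.2 in STD livers. HC replicate 3 reached into the STD range for Lbp, and the other 4 HC livers lay below every STD liver. The log2 fold change was −0.16 (SE 0.08), with an exact permutation p of 0.0317 (n = 5 livers each) but an adjusted p over all genes of 0.995.

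The hepcidins ran the other way, also within the spread. Hamp was at 6631.0, 10461.3, 4269.5, 5547.6 and 6265.3 in HC livers, against 2905.4, 5425.1, 3519.9, 7226.3 and 7721.5 in STD livers, a log2 fold change of 0.35 (SE 0.28, exact permutation p = 0.349, n = 5 each). Hamp2 was at 47.2, 17.5, 41.4, 86.3 and 7.3 in HC livers, against 9.7, 12.5, 18.6, 12.7 and 6.7 in STD livers. 3 HC livers were above every STD liver for Hamp2 and the other 2 were inside the STD range. Its log2 fold change of 1.30 (SE 0.53) was the largest positive one of the 10, with an exact permutation p of 0.0794 (n = 5 each), an adjusted p of 0.995 and a range of 0.92 to 1.77 with one liver left out. HC replicate 4, the highest for Hamp2, also had the highest summed fibroblast markers (3101, against 1214 to 1875 in the other livers). HC replicate 1, the next highest for Hamp2, had 1286 of these, and their part in the Hamp2 values was not tested.

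**Figure D1:**
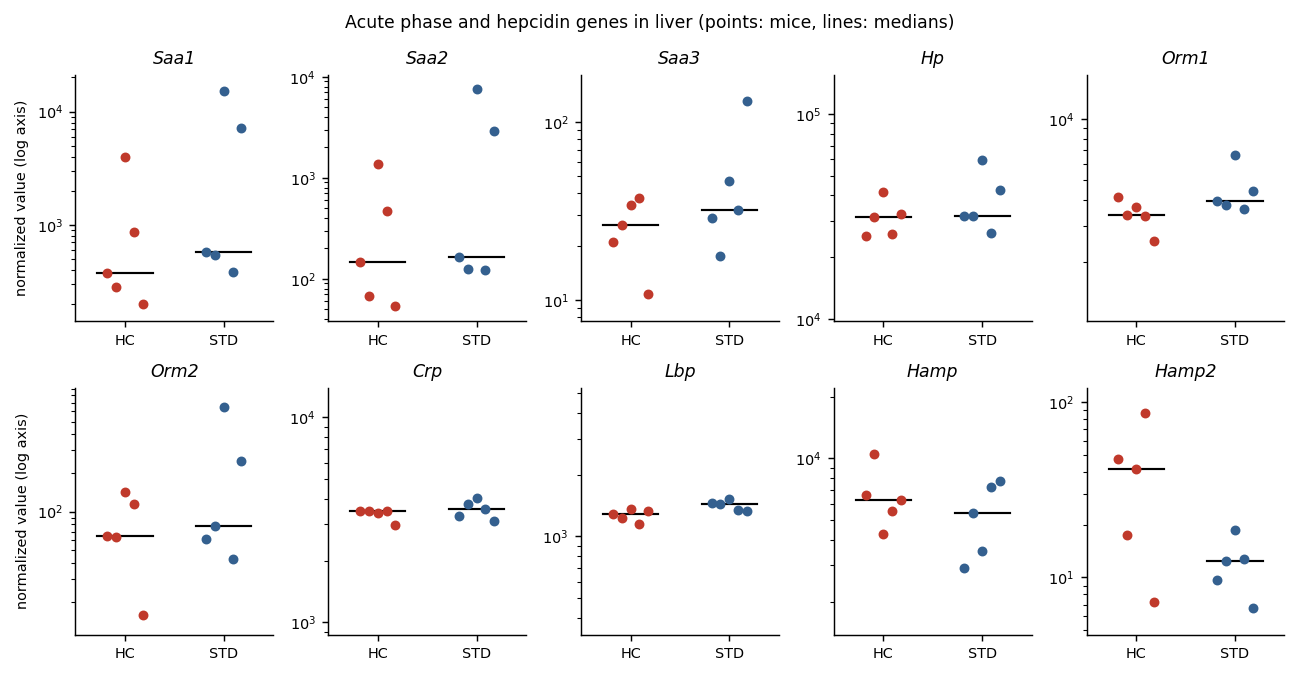
Normalised counts (log axes) of the 10 genes in each liver, HC at the left and STD at the right of every panel, with 5 livers each and a line at each group's median. The diets overlapped for every gene, and the Saa1, Saa2 and Orm2 panels show STD replicates 3 and 5 high above the other STD livers, with Saa1 at 15147.0 and 7217.8.

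Genes around the 10 gave no call either, where 0% of the 11497 genes tested were called. The lack of calls in the lists below follows from that and is no separate result. Of the other positive acute phase genes, 19 were tested and none was called (median log2 fold change 0.04). Complement C3, the most abundant of that list, was at 79724 ± 15541 in HC livers and 88774 ± 11340 in STD livers (SD, n = 5 each), and fibrinogen alpha (Fga) at 36136 ± 3571 in HC livers and 34551 ± 2241 in STD livers. None was called among 8 genes that fall in the acute phase (median 0.10), 15 of cytokine and STAT3 signalling (−0.04), 18 of BMP and SMAD control of hepcidin (0.03), 10 of iron transport and storage (0.05), 8 receptors and partners of the 10 (−0.00) or 8 glucocorticoid targets (−0.14). Among them were the hepcidin regulators Tfr2, a transferrin sensor, with a log2 fold change of −0.14 (SE 0.08), and Tmprss6, a protease that silences BMP signalling, at 0.06 (SE 0.07).

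Across the 10 livers, Saa1 and Saa2 varied together (Pearson r of log2 values 0.99), and Saa1 ran with Orm2 (0.93), Hp (0.85) and Orm1 (0.77). Hamp did not follow them (r with Saa1 −0.39), nor did it follow Hamp2 (−0.07). Outside the 10, Lcn2 was the closest to Saa1 (r = 0.95), Saa2 (0.97) and Orm2 (0.94). Orm1 lay nearest to Hpx, the haem-binding hemopexin (0.90), and Lbp to Tfr2 (0.94). These are descriptions over 10 libraries of one table that share their normalisation.

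In AML12 cells the order of levels was another one. Per kilobase, the medians over 24 libraries were 4331 normalised counts for Saa3, 2452 for Lbp, 1525 for Hp, 803 for Orm1, 681 for Crp, 45.4 for Hamp, 33.5 for Saa2, 27.6 for Saa1, 24.1 for Orm2 and 0 for Hamp2, which was 0 in 16 libraries, reached 6.9 at most and was not tested. The first 5 changed places between libraries (Saa3 above Lbp in 14 of 24, Hp above Orm1 in 17), while Crp was above Hamp in all 24. Per kilobase, Saa3 was last in liver and first in the cell line, and Hamp was second in liver and below Saa3, Lbp, Hp, Orm1 and Crp in the cell line, as values set side by side from tables normalised separately.

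Silencing Acly went with lower orosomucoid RNA. Over the 4 treatments together, 2 of the 9 genes tested were called, both lower, against 2.03% of the 12296 genes tested called lower and 4.77% called in either direction. Orm1 averaged 455.5 ± 203.6 normalised counts in siAcly libraries and 790.6 ± 178.1 in siC libraries (SD, n = 12 each), and Orm2 averaged 11.1 ± 11.7 in siAcly libraries and 34.7 ± 15.6 in siC libraries. The limma log2 fold changes were −0.88 (SE 0.21, adjusted p = 0.0198) for Orm1 and −1.97 (SE 0.41, adjusted p = 0.0104) for Orm2. The median of the 9 was −1.18, beside −0.01 over all genes tested.

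Orm2 was at 3.2, 5.4 and 3.1 in siAcly Ut libraries, against 46.5, 17.4 and 26 in siC Ut libraries. With HC it was at 36.2, 1.8 and 6.9 in siAcly, against 55.9, 16.8 and 40.0 in siC, and with SB at 31.1, 5.6 and 3.4 in siAcly, against 51.8, 23.7 and 34.2 in siC. With Bemp it was at 18.3, 14.3 and 3.5 in siAcly, against 59.6, 19 and 25.5 in siC. The siRNA arms were apart in the untreated groups, where 23.9% of all genes tested did not overlap in either direction. With Bemp they were apart only by 18.3 in siAcly against 19 in siC. That siC library was number 11, whose Acly lay in the siAcly range. With HC and SB the arms overlapped only through one siAcly library each, numbers 19 and 16. The share of all genes without overlap was not taken for the drug groups.

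Orm1 was at 256.1, 621.1 and 372.5 in siAcly Ut libraries, against 993.6, 616.0 and 624.3 in siC Ut libraries. With HC it was at 771.4, 342.3 and 349.6 in siAcly, against 979.0, 714.9 and 853.5 in siC, and with SB at 629.8, 226.4 and 388.2 in siAcly, against 1064.1, 605.3 and 837.1 in siC. With Bemp it was at 833.7, 333.0 and 342.2 in siAcly, against 893.7, 503.9 and 802.3 in siC. In each treatment 1 siAcly library reached into the siC range and the other 2 lay below it. The mean log2 difference was −0.89 in untreated cells, −0.90 under HC, −1.09 under SB and −0.64 under Bemp.

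The 24 libraries fell in 2 runs of library numbers, 1 to 23 and 81 to 87, and the size of the Orm differences varied between them. Among HC, SB and Bemp libraries 81 to 87, 3 of each siRNA, 5 of the 9 genes were called, all 5 lower (24.8% of all genes were called and 12.6% called lower). Each of these groups had 1 library in that run, so the 3 drugs stood as replicates of a siRNA, without a term for drug. There Orm1 was at 342.2 to 388.2 in the siAcly libraries numbered 81 to 87 (the untreated number 84 included) and 802.3 to 853.5 in siC, and Orm2 at 3.1 to 6.9 in siAcly and 25.5 to 40.0 in siC. Such a gap was common: in the HC, SB and Bemp libraries 81 to 87, 41.2% of all genes did not overlap between siRNAs. Those lower in siAcly were 21.4% of all genes. Within libraries 1 to 23 the fold changes kept their sign, −0.75 (SE 0.29) for Orm1 and −1.61 (SE 0.52) for Orm2, with adjusted p = 0.112 and 0.0677, and none of the 9 was called against 9.70% of all genes. In both runs siC libraries had the lower numbers and siAcly libraries the higher ones. siRNA and number therefore cannot be told apart within either run, and the fit over all 24 libraries pools the 2 runs. With the order of library numbers within a group as a factor over all 24 libraries, an alternative chosen after seeing the data, Hp and Saa3 (adjusted p = 0.0141 each) and Saa2 (0.0492) were called lower beside Orm1 and Orm2, where 6.73% of all genes were called lower.

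**Figure D2:**
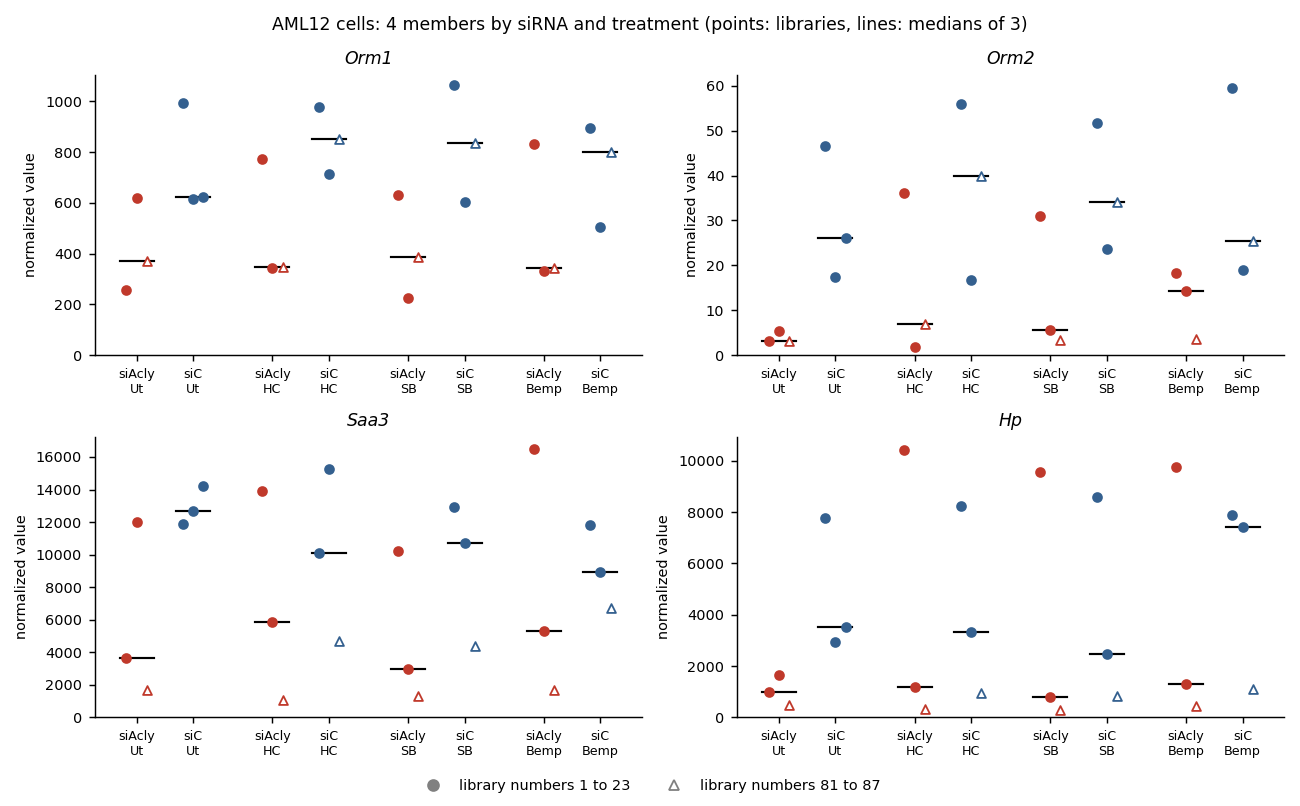
Normalised counts (linear axes from 0) of Orm1, Orm2, Saa3 and Hp in each AML12 library by treatment, siAcly at the left and siC at the right of each pair, with 3 libraries per group, a line at each median and open triangles for library numbers 81 to 87. Orm1 and Orm2 sit lower with siAcly in each treatment, Orm2 at 11.1 ± 11.7 in siAcly and 34.7 ± 15.6 in siC (SD, n = 12 each), and for Orm1 1 siAcly library of each group reaches the siC range.

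The other 7 tested genes missed the call. Saa3, the most abundant serum amyloid of these cells, was at 1075 to 16476 in siAcly libraries and 4394 to 15279 in siC libraries, a log2 fold change of −1.18 (SE 0.45, adjusted p = 0.123). In libraries 81 to 87 alone (HC, SB and Bemp) Saa3 was among the 5 called, at −1.96 (adjusted p = 4.81e-05), with Hp at −1.51 (1.52e-04), Orm1 at −1.21 (1.39e-05), Orm2 at −2.65 (7.80e-04) and Saa2 at −1.95 (0.0491). Those p-values take the drugs as replicates of a siRNA, so they measure only the spread between these libraries. Over all libraries Hp had a log2 fold change of −1.33 (adjusted p = 0.249), Saa1 −1.55 (0.485), Saa2 −1.58 (0.389), Hamp −0.87 (0.498), Crp −0.42 (0.327) and Lbp 0.07 (0.777). Lbp was thus the one gene of the 9 with a mean log2 value that was not lower in siAcly libraries.

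Without drug, siAcly Ut against siC Ut gave no call among the 9 (0.187% of all genes were called). With the same order factor, Orm2 (adjusted p = 0.0223), Crp (0.0380), Saa1 (0.0417) and Hp (0.0492) were called lower, where 3.36% of all genes were. A cluster factor from the data, also chosen after seeing them, put each library in level 1, 2 or 3 by clustering the expression of genes outside the lists. No label names these levels, and a siRNA difference may enter them. With that cluster factor none of the 9 was called. 5 of the 9 were lower in each siAcly Ut library than in any siC Ut library, where 23.9% of all genes tested did not overlap in either direction. Hp was at 976.4, 1650.3 and 491.2 in siAcly Ut libraries, against 7765.1, 2926.9 and 3509.9 in siC Ut libraries, and Crp at 1237.7, 625.5 and 516.7 in siAcly Ut, against 1301.1, 1507.7 and 1690.1 in siC Ut. Saa1 was at 7.4, 9.3 and 0.0 in siAcly Ut and at 257.1, 19.5 and 29.6 in siC Ut. The fold changes of the 5 were −2.58 for Orm2, −2.22 for Hp, −1.02 for Crp, −3.62 for Saa1 and −3.25 for Saa2. The siC Ut group had no library numbered 81 to 87 while siAcly Ut had 1. By cluster factor, siAcly Ut libraries 14, 15 and 84 stood at levels 2, 3 and 3. siC Ut libraries 1, 2 and 13 stood at levels 1, 2 and 2. Only level 2 was shared, so siRNA and cluster level cannot be fully told apart in this comparison. The order factor matched library 14 with library 1, which was at another level. Within siC HC, Hp was at 8242.2, 3339.2 and 966.9 at levels 1, 2 and 3.

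Drug treatment moved none of them past the test. HC, SB and Bemp were each compared with Ut within each siRNA, and 0 of the 9 genes were called in each of the 6 comparisons, against 0% of all genes (42, 70 and 240 genes had an unadjusted p under 0.05 for HC, SB and Bemp in siC cells, and 271, 1648 and 314 in siAcly cells). The interaction of siRNA and drug was not called for any of the 9 either. The doses of the 3 inhibitors differed, so their values are given side by side only. For Orm1 in siC cells they were 849.2 ± 132.1 after HC, 835.5 ± 229.4 after SB and 733.3 ± 203.9 after Bemp, against 744.7 ± 215.6 without drug (SD, n = 3 each). For Hamp in siC cells they were 52.0 ± 58.6 after HC, 51.8 ± 60.4 after SB and 66.1 ± 41.7 after Bemp, against 33.8 ± 41.3 without drug, an SD as large as most of the means.

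The spread within groups was wide for some genes and narrow for others. Within a group the highest value over the lowest had a median of 9.41-fold for Hp (8 groups, 2.65 to 34.2) and 12.9-fold for Hamp (5.03 to 54), against 2.01-fold for Orm1 (1.37 to 2.78) and 1.60-fold for Lbp (1.04 to 1.78). In 7 of the 8 groups Hp, Orm1 and Orm2 were highest in the library with the lowest number, and in 7 of 8 Hp, Saa1, Saa2, Saa3 and Crp were lowest in the library with the highest number. Hp ran with albumin across the 24 libraries (Pearson r 0.99), and so did Saa2 (0.98). In siC Ut cells, for example, albumin was at 11853, 2963 and 5522 in the libraries with 257.1, 19.5 and 29.6 of Saa1, and Hamp there was at 81.5, 9.0 and 10.9. Hepatocyte genes as a list were not called between siRNAs (5 tested, median −0.62), and their part in the results was not tested.

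**Figure D3:**
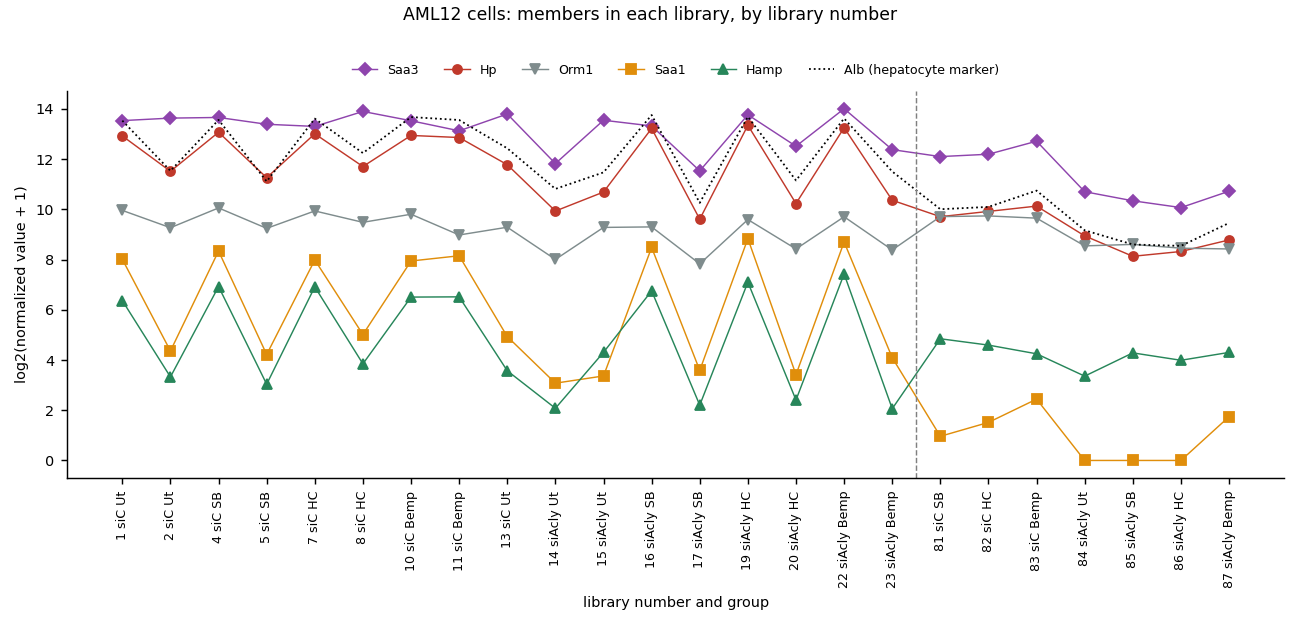
log2(normalised count + 1) of Saa3, Hp, Orm1, Saa1, Hamp and albumin (Alb) in the 24 AML12 libraries in order of library number, with thin lines that only join the points of a gene and a dashed line between numbers 1 to 23 and 81 to 87. Hp, Saa1 and Alb go up and down together (Hp with Alb r 0.99), and Orm1 stays in a narrower band.

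Other lists showed a few calls with siAcly over the 4 treatments, where 2.03% of all genes tested were called lower. Among 15 genes of cytokine and STAT3 signalling 2 were lower, Il6st, the gp130 chain shared by IL-6 family receptors (1357 ± 336 in siAcly and 1955 ± 243 in siC, SD, n = 12 each, adjusted p = 0.00531), and Il1r1, the IL-1 receptor (114.5 ± 31.7 in siAcly and 176.1 ± 54.5 in siC, adjusted p = 0.0479). Among 15 genes of BMP and SMAD control of hepcidin 2 were lower, the signal transducers Smad5 (log2 fold change −0.45, adjusted p = 0.00950) and Smad1 (−0.22, 0.0461). No gene was called among 20 other positive acute phase genes (median −0.66, C3 at 46054 ± 20861 in siAcly and 71187 ± 25863 in siC), 7 negative acute phase genes (−0.37), 10 of iron transport and storage (−0.15), 6 receptors and partners (0.05) or 8 glucocorticoid targets (0.01). The nearest gene to Saa3 across the 24 libraries was Lcn2 (r = 0.96), and the nearest to Orm1 was Id3, a BMP target (0.90), while Orm1 and Orm2 ran together at 0.86.

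**Figure D4:**
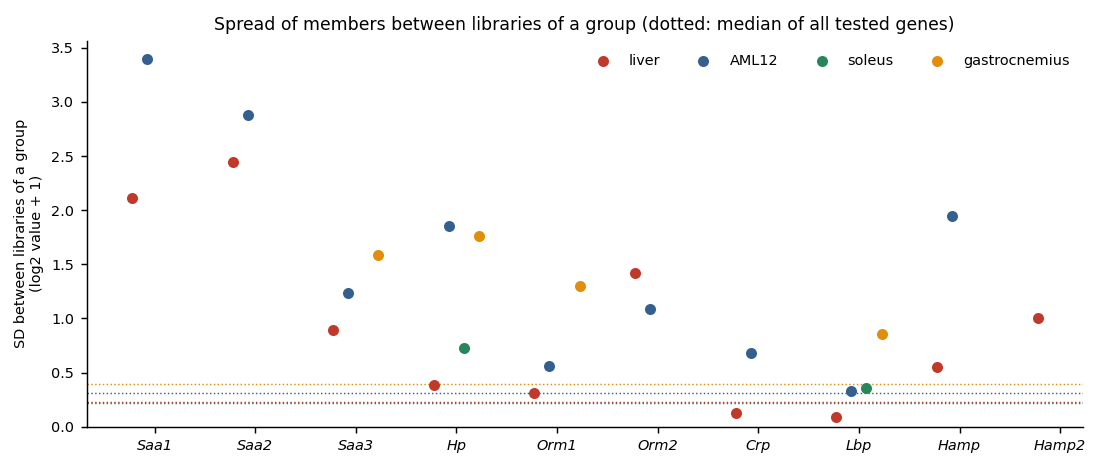
Residual SD of log2(normalised count + 1) between libraries of the same group, for each gene tested in each of the 4 tables, with a dotted line at the median of all genes tested in that table. Saa2 (2.44) and Saa1 (2.11) lead in liver and Saa1 (3.40) in AML12, while Lbp in liver (0.09) lies under the median of 0.23.

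Of the 10, Saa1 and Saa2 were the most variable within groups in both tables. In liver the residual SD was 2.44 for Saa2, 2.11 for Saa1, 1.42 for Orm2, 1.00 for Hamp2, 0.89 for Saa3, 0.55 for Hamp, 0.39 for Hp, 0.31 for Orm1, 0.13 for Crp and 0.09 for Lbp on the log2 scale, beside a median of 0.23 over all genes tested. In AML12 it was 3.40 for Saa1, 2.88 for Saa2, 1.95 for Hamp, 1.86 for Hp, 1.23 for Saa3, 1.09 for Orm2, 0.68 for Crp, 0.56 for Orm1 and 0.33 for Lbp, beside 0.31. In liver, Saa1 and Saa2 were above 99.9% of all genes tested and Lbp was above 2.64%.

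In muscle the genes were mostly near 0. In the soleus only Hp and Lbp passed the limit on low values, and neither was called with HC, against 0% of 12067 genes tested (609 had an unadjusted p under 0.05). Hp was at 146.4, 79.6, 117.1, 399.8 and 154.0 in HC soleus, against 164.6, 76.7, 77.6, 71.7 and 147.9 in STD soleus, and Lbp was at 69.0, 71.7, 93.9, 123.4 and 98.6 in HC, against 76.3, 93.4, 81.5, 97.5 and 49.9 in STD. HC replicate 4 stood far above the rest for Hp and the diets overlapped otherwise. The log2 fold changes were 0.60 (SE 0.37, exact permutation p = 0.262, n = 5 each) and 0.20 (exact permutation p = 0.421). HC replicate 4 also had the highest level of the fat cell hormones Adipoq (239.9, against 65.5 to 144.8 in the other 9) and Lep (185.3, against 6.2 to 72.6), whose part in its Hp value was not tested. Hamp reached 18.4 in HC soleus and 23.4 in STD soleus, and albumin in the same table ranged over 16.2 to 490.2 in HC and 179.6 to 1087 in STD, so a trace of liver RNA cannot be told apart from expression in the muscle at these levels. In whole tissue, fewer cells of a type and less RNA per cell cannot be told apart either.

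In the gastrocnemius 4 of the 10 passed the limit on low values, Hp, Lbp, Orm1 and Saa3. Cardiotoxin with HC chow gave the highest Hp and Saa3 values at 2 DPI, but neither was called, against 9.93% of the 14033 genes tested called for CTX-HC 2 DPI against C. Hp was at 378.6, 995.3 and 38.8 in CTX-HC 2 DPI muscle and at 84.1, 242.1 and 33.8 in CTX 2 DPI muscle, against 33.3, 14.1 and 21.1 in C muscle. Saa3 was at 47.0, 19.5 and 1.2 in CTX-HC 2 DPI and at 9.8, 7.9 and 3.1 in CTX 2 DPI, against 0.9, 0 and 0 in C. Each injured muscle at 2 DPI was above each C muscle for both genes, as for 50.9% of all genes without overlap in CTX-HC and 29.1% in CTX, and one CTX-HC animal, replicate 3, stayed near C.

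The limma log2 fold changes of CTX-HC 2 DPI against C were 3.45 (SE 1.26, adjusted p = 0.0804) for Hp and 3.38 (SE 1.25, adjusted p = 0.0835) for Saa3, and both were called when that animal was left out (adjusted p = 0.0303 for Hp and 0.0327 for Saa3, with 15.3% of all genes called). They were also called without libraries 51 and 62 of the 30 DPI groups (0.0270 and 0.0262, with 31.8% of all genes called), an alternative chosen after seeing the data. For CTX 2 DPI against C they were 1.99 (adjusted p = 0.446) for Hp and 2.56 (adjusted p = 0.354) for Saa3, with 0% of all genes called (2095 had an unadjusted p under 0.05). For CTX-HC 2 DPI against CTX 2 DPI they were 1.46 for Hp and 0.82 for Saa3, again with 0% called (1005 genes had an unadjusted p under 0.05), and exact permutation p = 0.4 and p = 0.5 (n = 3 each, smallest possible p 0.1). The macrophage marker Cd68 was at 2708, 2107 and 1211 in CTX-HC 2 DPI and at 886.1, 770.4 and 460.2 in CTX 2 DPI, against 251.4, 341.3 and 70.3 in C. The order of Cd68 within CTX-HC 2 DPI was that of Saa3, lowest in replicate 3. The 6 fat cell markers summed to 80.4, 335.1 and 5.55 in CTX-HC 2 DPI and to at most 34.6 in CTX 2 DPI, against 26.2 to 68.5 in C, and their order within CTX-HC 2 DPI was that of Hp. The 6 neutrophil markers summed to 206.9, 82.8 and 20.03 in CTX-HC 2 DPI and to 2.17 to 46.5 in CTX 2 DPI, against 0 to 2.72 in C, and their order within CTX-HC 2 DPI was that of Saa3 too. The 5 fibroblast markers, at 43245, 82525 and 21108 in CTX-HC 2 DPI against 9215 to 12655 in C, had the order of Hp too. The part of any of these in the Hp and Saa3 values was not tested, while the hepatocyte gene Alb was at 0.9 to 8.3 in the 3 CTX-HC 2 DPI muscles, against 3.7 to 385.5 in C.

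At 30 DPI the injured muscles overlapped C for both genes. Hp was at 10.2, 363.9 and 35.3 in CTX-HC 30 DPI and at 12.2, 46.9 and 29.5 in CTX 30 DPI, and Saa3 was at 0, 1.2 and 0 in CTX-HC 30 DPI and at 0, 18.4 and 0 in CTX 30 DPI. The high Hp muscle of CTX-HC 30 DPI, library 62, also held the most Adipoq (188.1) and Lep (230.3) of the table. The high Saa3 muscle of CTX 30 DPI was library 51, which also had the highest Lbp, at 337.3 against 57.4 to 101.3 in the other 2. In that library the fibroblast markers summed to 57488, against 10276 and 11445 in the other 2 of its group, and the 7 macrophage markers to 1521, against 269.7 and 192.6. Library 62 stood apart in the same way, at 54969 for fibroblast and 1945 for macrophage markers, against at most 15526 and 303.2 in the other 2 of its group, and the part of these in the Hp, Saa3 and Lbp values was not tested. None of the 4 genes was called in CTX-HC 30 DPI against C, CTX 30 DPI against C or CTX-HC 30 DPI against CTX 30 DPI, with 0% of all genes called in each (388, 437 and 106 at an unadjusted p under 0.05), nor in CTX 30 DPI against CTX 2 DPI, with 0.257% called. Orm1 was at 18.3 or less in all 15 muscles.

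**Figure D5:**
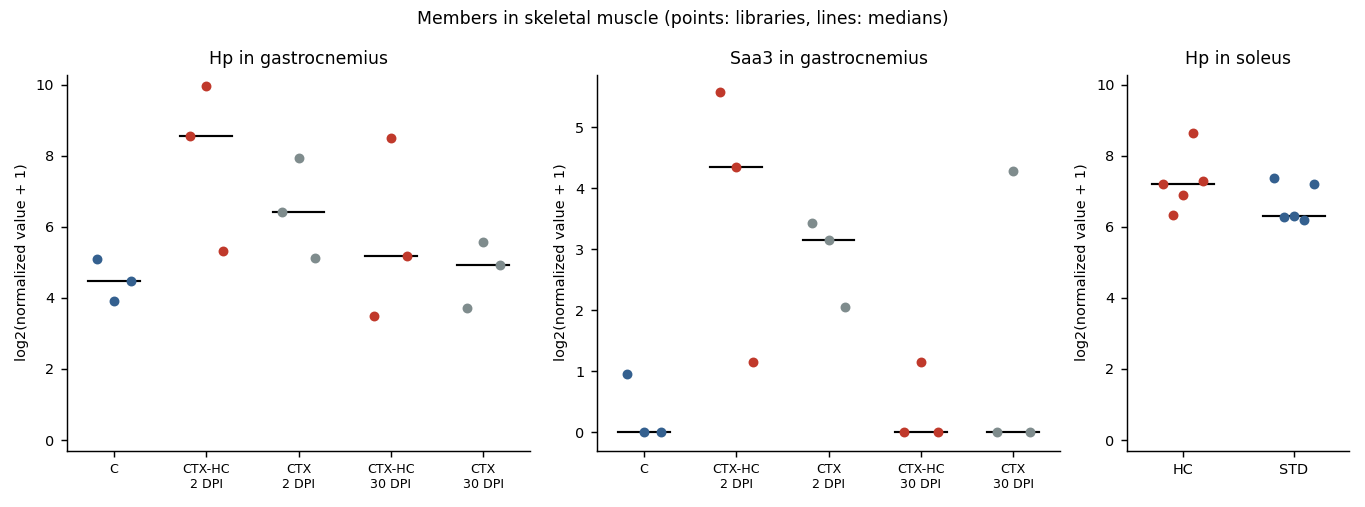
Normalised counts of Hp and Saa3 in each gastrocnemius and of Hp in each soleus, the injured groups as labelled on the axis beside uninjured C, HC soleus at the left of STD, with 3 muscles per gastrocnemius group, 5 per soleus group and a line at each median. Hp reaches 995.3 and 378.6 in CTX-HC 2 DPI, while one muscle of that group lies at 38.8, near the C muscles at 14.1 to 33.3.

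Beside them, 6 of 17 other positive acute phase genes rose in CTX-HC 2 DPI muscle against C and none fell, with a median log2 fold change of 0.45 beside 0.02 over all genes, where 5.34% of all genes tested were called higher and 4.59% lower. Il1rn, the IL-1 receptor antagonist, had a log2 fold change of 4.91 (adjusted p = 0.0417), Serpina3n 3.18, Lcn2 2.97 (0.0187) and Lrg1, a leucine-rich glycoprotein, 1.07 (0.0497). Among 17 genes of cytokine and STAT3 signalling, Stat3 (1.02), Rela (0.89) and Nfkb1 (0.63) rose and the LIF receptor Lifr (−0.85) fell. Of the 9 receptors and partners, Cd14, which takes lipopolysaccharide from Lbp, rose by 3.05 and Lrp1, a scavenger receptor, by 2.28, while ferroportin Slc40a1, the target of hepcidin, fell by 1.4 on the log2 scale. Of 11 iron genes 3 rose, the haem oxygenase Hmox1 (2.69), the ferritin light chain Ftl1 (1.83) and the metal importer Slc39a14 (1.29), and Slc40a1, which is in this list too, fell. Of 16 BMP and SMAD genes 2 fell, Hfe2, the BMP co-receptor hemojuvelin, by 1.29 and Neo1, its partner, by 0.59, and so small a count says little beside the 4.59% of all genes called lower. None of 7 negative acute phase genes or 7 glucocorticoid targets was called. The muscle fibre markers summed to 866858 to 1282454 in CTX-HC 2 DPI, against 2268126 to 3084478 in C. The macrophage markers summed to 2564 to 8028 in CTX-HC 2 DPI, against 285.3 to 1242 in C. A change in cell mix and a change of RNA per cell cannot be told apart for the genes of these lists.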

How the data were processed

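RNA from liver, soleus, gastrocnemius and AML12 cells was sequenced on an Illumina instrument, reads were aligned to mm10, and the authors normalised gene counts with DESeq median ratios. The deposited values are therefore a signal per gene in normalised counts that is comparable within a table, and whole reads could not be recovered from them. Kits differ between the labels of liver and soleus (ribosomal RNA depletion) and those of AML12 and gastrocnemius (mRNA capture), and the 4 tables were normalised separately, so no test runs across them. The tables hold 24972 rows each and 0 value columns of no listed sample. Columns of the authors' own comparisons were not used.

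Groups came from the labels. log2(value + 1) was fitted with limma 3.58.1 (trend, R 4.3.3) over all groups of a table, leaving out genes that reached 10 in fewer libraries than the smallest group has, and p-values were adjusted by Benjamini-Hochberg over all genes tested. A gene was called at an adjusted p under 0.05. 21 comparisons were made, 11 of them in AML12 and 8 in gastrocnemius. Fold changes on the log2(value + 1) scale understate changes of low genes. For single genes exact permutation tests were run in Python 3.11.15 with SciPy 1.17.1. The fits were tested on simulated data. Depth was estimated from the column sums and the commonest low value of each library, and no interval that needs counts was given.

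The 10 genes and the gene lists were chosen with earlier results of these data known. In each list the genes named are the 2 highest and 2 lowest log2 fold changes among those called or, where none was called, the 2 with the highest mean. A gene's nearest genes are those of highest Pearson r over all libraries of the table. Cd68, Lcn2, Serpina3n, Clec4f, Adipoq, Lep, Tfr2 and Alb were otherwise named after their values were seen. Same-numbered liver libraries of the 2 diets correlated at 0.02 to 0.08 in their deviations and soleus libraries at −0.11 to 0.40, with none of 5 and 1 of 5 pairs over 0.1, and nothing in the labels ties the numbers, so the diets were treated as unpaired. Promoters were searched on both strands for the 4 motifs with plain letter matching. No 2 libraries were identical. Alternatives changed the pseudocount to 0.5 or 5, the limit on low values, the scaling, the groups in the fit, covariates, and left out each library in turn.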

Additional observations from a re-analysis of the deposited data

Results flagged for a closer look

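24 sets of 5 values, one for each gene and diet group in liver and soleus, were searched for a lone high or low library with Dixon's test at the 95% limit (0.71 for 5 samples), and 5 passed it. The chance rate of about 1 in 20 holds for normally distributed values. The test was run on normalised counts without the log2 scale, so the count of 5 cannot be set against that rate. Crp in liver HC replicate 5 was the lone low value, at 2981 normalised counts. Orm1 in liver STD replicate 3, at 6622, and Saa3 in liver STD replicate 5, at 132.2, were lone high values of their groups. Saa1 in liver HC replicate 3, at 3944, was the lone high value among HC livers and lay below the 2 highest STD livers. Hp in soleus HC replicate 4, at 399.8, was the lone high value of HC soleus, in the library with the most Adipoq and Lep. Of 31 interaction tests of these genes (siRNA with drug, and HC with time after injury) none passed, and the smallest adjusted p was 0.735.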

How the results depend on the processing

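Of 365 counts of called genes recomputed under alternatives for the 21 comparisons, 356 did not move and 9 did, in 3 comparisons. For siAcly against siC over 4 treatments the count of 2 became 4 with the library number series as a covariate, 5 with the order of library numbers as a factor, 4 with the cluster factor from the data, 0 with libraries 1 to 23 only and 5 with libraries 81 to 87 only (the last 4 chosen after seeing the data). The log2 fold changes of Orm1 and Orm2 stayed negative in each, and leaving out one library at a time gave 2 each time, with Orm1 at −0.99 to −0.79 (adjusted p 0.0103 to 0.0487) and Orm2 at −2.22 to −1.75 (adjusted p 0.00300 to 0.0278). Both were called in 34 of 35 alternatives and lost only with libraries 1 to 23. For siAcly Ut against siC Ut the count of 0 became 4 with the order of library numbers as a factor (also chosen after seeing the data), and stayed at 0 with any one library left out. For CTX-HC 2 DPI against C the count of 0 became 1 with only the groups compared and 2 without libraries CTX 30 DPI 51 and CTX-HC 30 DPI 62 (a choice made after seeing the data), and ranged from 0 to 2 with one library left out. Without CTX-HC 2 DPI replicate 3 the adjusted p was 0.0303 for Hp and 0.0327 for Saa3. The cause of these changes was not tested. In the other 18 comparisons no alternative moved the count of 0, and leaving out any one library gave 0. With the replicate number as a block in the liver and soleus fits, 0 of the 10 genes were called, as without the pairing. Leaving out the libraries labelled siC Bemp 11 and siC Ut 13 changed no count.

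Depth and group size limit what can be seen. Between livers of the same diet the residual SD was 2.11 log2 units for Saa1 and 2.44 for Saa2. The SE of the diet difference was 1.05 and 1.22, and even the log2 fold changes seen, −1.49 and −1.45, were not called. Hamp2 and Saa3 in liver, Orm2 in AML12 and Saa3 in muscle are low, so that a few reads move their values.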
